A study of Mus musculus with 6 samples.

Results

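The 9 genes described here encode transcription factors of the erythroid and megakaryocyte lineages, measured in sorted mouse myeloid progenitors, namely Gata1, Gata2, Zfpm1, Tal1, Lyl1, Lmo2, Klf1, Gfi1b and Nfe2. They were taken as a named set, and every probe set that the platform annotation gives to exactly 1 of these symbols was used. Each of the 9 genes had 1 such probe set, so 9 of 34760 probe sets and 9 of 19937 genes are described, and no probe set was shared between a member and another gene. The cells were pre-granulocyte-macrophage progenitors (PreGMs), an early bone marrow stage that precedes the granulocyte-macrophage progenitor. The sort kept Kit+ cells that lacked lineage markers, Sca1, CD150, CD41, FcγRII and endoglin. Of 6 Affymetrix arrays, 3 were labelled Cebpa flox/flox and 3 Cebpa flox/flox;Mx1Cre, and the design text gives 3 mice for each genotype. All mice were female C57BL/6, carried the floxed Cebpa alleles, and had received pIC (polyinosinic-polycytidylic acid) 18 days earlier. Mx1Cre is a Cre recombinase under an interferon-inducible promoter, so pIC switches it on in many cell types, and the flox/flox mice lack it. Neither the age of the mice nor the share of recombined cells is given in the sources used here.

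GATA1 and GATA2 are zinc-finger proteins that bind the same short DNA motif, and GATA1 takes over from GATA2 as red cell and platelet precursors mature. FOG1, the product of Zfpm1, is a cofactor that binds GATA factors rather than DNA. TAL1 and its paralogue LYL1 are basic helix-loop-helix proteins that pair with E proteins, and LMO2 is a LIM-domain adaptor that, with LDB1, bridges such pairs to a GATA factor. KLF1 drives the red cell programme, GFI1B is a repressor needed by both lineages, and NF-E2 p45, the product of Nfe2, is needed for platelet release. C/EBPα, the product of Cebpa, is needed to form granulocyte-macrophage progenitors.

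The targeted gene went against the labels. Cebpa read 6.93, 6.71 and 6.85 on the log2 scale in arrays labelled flox/flox (replicates 1, 2 and 3) and 8.71, 9.31 and 8.98 in those labelled Mx1Cre. Where its probes lie relative to the deleted part was not used here, so the directions below hold for the deposited labels only, and an exchange of the 2 labels would turn each of them. Array values correlated at 0.992 to 0.995 within a label and 0.984 to 0.990 between labels, across genes, which are not independent replicates. Among the genes of the sort gate, Kit was bright on both sides (10.5 ± 0.090 and 10.6 ± 0.084, SD, n = 3 each). Slamf1, which encodes the excluded CD150, averaged 5.46 and 5.29 for flox/flox and Mx1Cre, under the lower quartile of gene levels (5.63). Itga2b (CD41) averaged 7.95 and 7.63 and Eng (endoglin) 7.37 and 7.31, between the median (6.64) and the upper quartile (8.07) of gene levels, although the sort excluded both proteins. The list of gate genes had 13 of 16 measured, without Ly6a, which encodes the excluded Sca1. It also holds Cd34 and Fcgr3, whose products the stated sort does not name. Of the 13, limma called 2 higher and 1 lower in the arrays labelled Mx1Cre (2.63% and 2.28% of all genes). At an unadjusted p under 0.05, 2 were higher and 3 lower (8.32% and 8.12% of all genes). Cd34, a progenitor surface protein, rose 2.01-fold (adjusted p = 0.000692) and Fcgr2b, which encodes the excluded FcγRII, 1.34-fold (adjusted p = 0.0410). Fcgr3, which encodes FcγRIII, fell 2.06-fold (adjusted p = 0.00970). The call of Fcgr2b held in 1 of the 6 fits that left out 1 array, the one without Mx1Cre replicate 1 (0.0426). Whether these differences in gate genes have a part in those of the 9 factors was not tested.

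Lmo2 rose and Nfe2 fell in the arrays labelled Mx1Cre, and the other 7 factors did not pass the test. The test was limma over all 19937 genes, with a gene called at a Benjamini-Hochberg adjusted p under 0.05. By that rule 4.91% of all genes were called, 2.63% higher and 2.28% lower in those arrays, against 2 of the 9 factors, 1 in each direction. At an unadjusted p under 0.05, 5 of the 9 factors were lower and 1 higher, against 8.12% and 8.32% of all genes. Differences are given as Mx1Cre minus flox/flox in log2 units with limma's standard error (SE), and 95% intervals are for single genes, not adjusted for the number tested. Of the 9 differences 8 were below 0, with a median of -0.36, while 53.4% of all genes had a difference below 0 and their median was -0.01. The 3 values of each label did not overlap for 5 of the 9 factors, 4 lower and 1 higher. Over all genes the groups did not overlap for 21.6%, of which 11.0% of all genes were lower and 10.5% higher in the arrays labelled Mx1Cre.

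**Figure D1:**
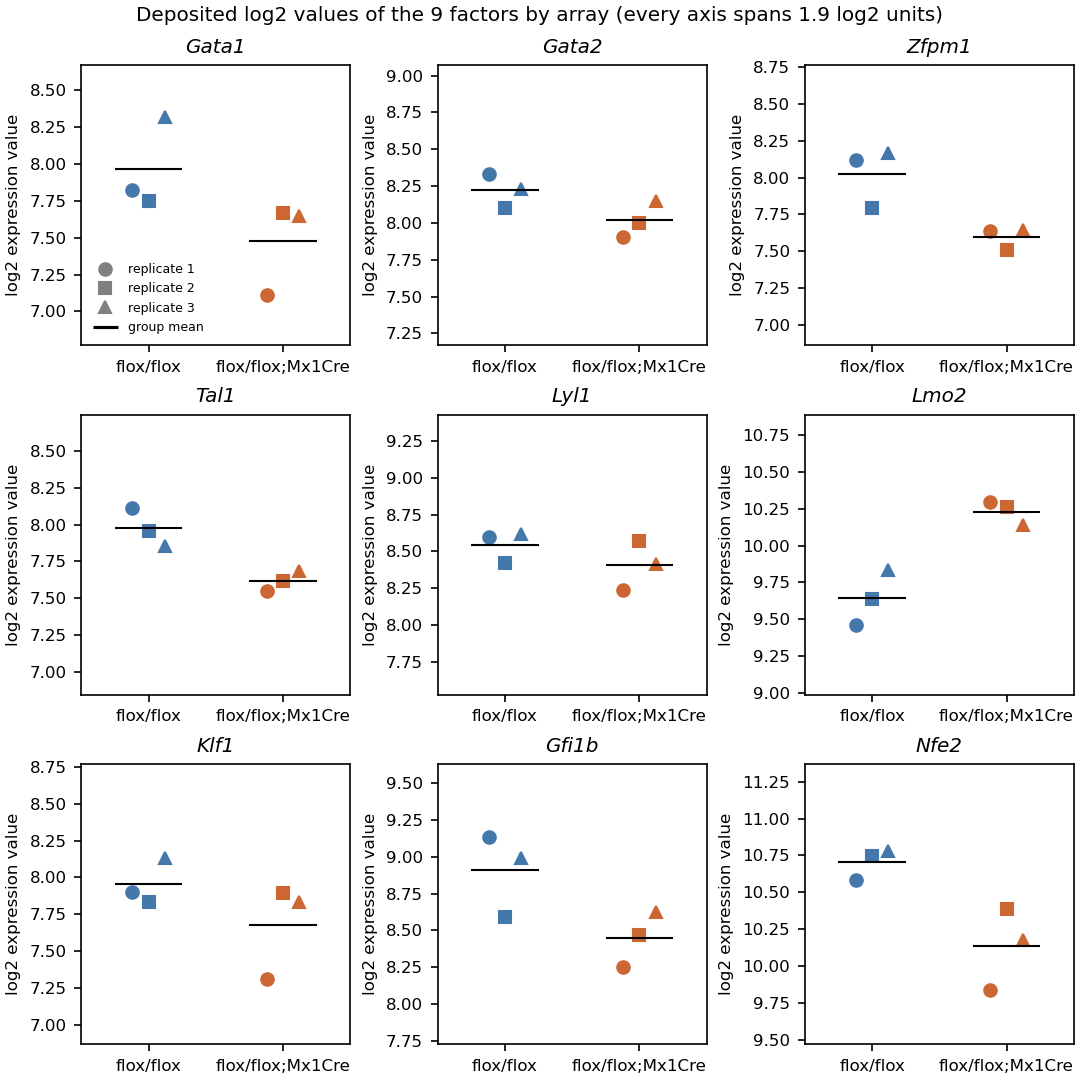
Log2 expression values (vertical axes, each of the same span) of the 9 factors in the 3 arrays of each label (horizontal axis), with the group mean as a line and the replicate number as the symbol. Lmo2 is higher in all 3 arrays labelled Mx1Cre, Gata1, Zfpm1, Tal1 and Nfe2 are lower in all 3, and the groups overlap for Gata2, Lyl1, Klf1 and Gfi1b.

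Gata1, the main GATA factor of maturing red cells and megakaryocytes, read 7.82, 7.75 and 8.32 in the arrays labelled flox/flox and 7.11, 7.66 and 7.65 in those labelled Mx1Cre. The groups did not overlap, but flox/flox replicate 2 and Mx1Cre replicate 2 lay close together, and flox/flox replicate 3 and Mx1Cre replicate 1 stood apart from their own groups. The difference of -0.49 ± 0.18 (SE) had an interval of -0.89 to -0.09 and did not pass (limma adjusted p = 0.191). Fewer cells expressing a gene and less of its RNA per cell cannot be told apart in sorted bulk samples such as these.

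Gata2, the GATA factor of stem cells, early progenitors and mast cells, read 8.331, 8.104 and 8.234 for flox/flox and 7.902, 8.002 and 8.149 for Mx1Cre. Mx1Cre replicate 3 lay above flox/flox replicate 2, so the groups overlapped. Its difference was -0.21 ± 0.10 (SE), with an interval of -0.43 to 0.02 (limma adjusted p = 0.358). Zfpm1, which encodes the GATA cofactor FOG1, read 8.12, 7.80 and 8.17 for flox/flox and 7.64, 7.51 and 7.65 for Mx1Cre. All 3 arrays labelled Mx1Cre were lower than any labelled flox/flox. At -0.43 ± 0.11 (SE, limma adjusted p = 0.0604) Zfpm1 lay just outside the threshold, and it passed without flox/flox replicate 2, the lowest of its group (-0.55, adjusted p = 0.0203). Its adjusted p ran from 0.0203 to 0.220 over 15 alternatives.

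Tal1, the haematopoietic helix-loop-helix factor also called SCL, read 8.11, 7.96 and 7.85 for flox/flox and 7.55, 7.62 and 7.68 for Mx1Cre. The groups were separate, with a spread of 0.13 (SD) in the first and 0.065 in the second. The difference was -0.36 ± 0.10 (SE), with an interval of -0.57 to -0.14, and did not pass (limma adjusted p = 0.0673). Lyl1, its paralogue in stem and progenitor cells, read 8.59, 8.42 and 8.62 for flox/flox and 8.24, 8.57 and 8.41 for Mx1Cre. The values of its groups ran through each other. At -0.14 ± 0.11 (SE) Lyl1 had the smallest difference of the 9, with an interval of -0.38 to 0.10 (limma adjusted p = 0.638).

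Lmo2, the adaptor of the complex that holds TAL1 and GATA factors, moved the other way. It read 9.46, 9.64 and 9.83 in the arrays labelled flox/flox and 10.29, 10.26 and 10.14 in those labelled Mx1Cre. Every array labelled Mx1Cre was higher. The gap between the nearest arrays of the groups exceeded the range within the Mx1Cre group but not that within the flox/flox group. The means were 9.64 ± 0.19 and 10.23 ± 0.083 (SD, n = 3 each), a rise of 0.59 ± 0.11 log2 units (SE) or 1.502-fold, with an interval of 0.34 to 0.83 (limma adjusted p = 0.0134). Lmo2 passed in each of the 6 fits that left out 1 array (differences of 0.50 to 0.68). It did not pass when all 34760 probe sets were tested together (adjusted p = 0.09997).

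Klf1, the erythroid Krüppel-like factor, read 7.90, 7.83 and 8.13 for flox/flox and 7.31, 7.89 and 7.83 for Mx1Cre. Only Mx1Cre replicate 1 was below all the flox/flox arrays. The difference was -0.28 ± 0.15 (SE), with an interval of -0.61 to 0.06 (limma adjusted p = 0.433), and it was -0.09 without that array. Gfi1b, the repressor shared by red cell and megakaryocyte precursors, read 9.14, 8.59 and 8.99 for flox/flox and 8.25, 8.47 and 8.63 for Mx1Cre. Flox/flox replicate 2 lay among the Mx1Cre values. The difference of -0.46 ± 0.15 (SE) did not pass (limma adjusted p = 0.128), but it did without flox/flox replicate 2 (-0.62, adjusted p = 0.0344). Its adjusted p ran from 0.0344 to 0.367 over 15 alternatives.

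Nfe2, which encodes the larger subunit of NF-E2, read 10.58, 10.75 and 10.78 in the arrays labelled flox/flox and 9.84, 10.39 and 10.18 in those labelled Mx1Cre. The groups did not overlap, and Mx1Cre replicate 1 was the lowest array. The means were 10.70 ± 0.11 and 10.13 ± 0.28 (SD, n = 3 each). Nfe2 fell by 0.57 on the log2 scale (SE 0.14, 1.48-fold, interval -0.87 to -0.27, limma adjusted p = 0.0410). That call was close to the threshold. It held in 1 of the 6 fits that left out 1 array, the one without Mx1Cre replicate 2 (adjusted p = 0.0185). It was lost without flox/flox replicates 1, 2 and 3 (0.0726, 0.114 and 0.142), without Mx1Cre replicates 1 and 3 (0.0753 and 0.108), with median centring (0.0771) and with all probe sets tested together (0.200).

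**Figure D2:**
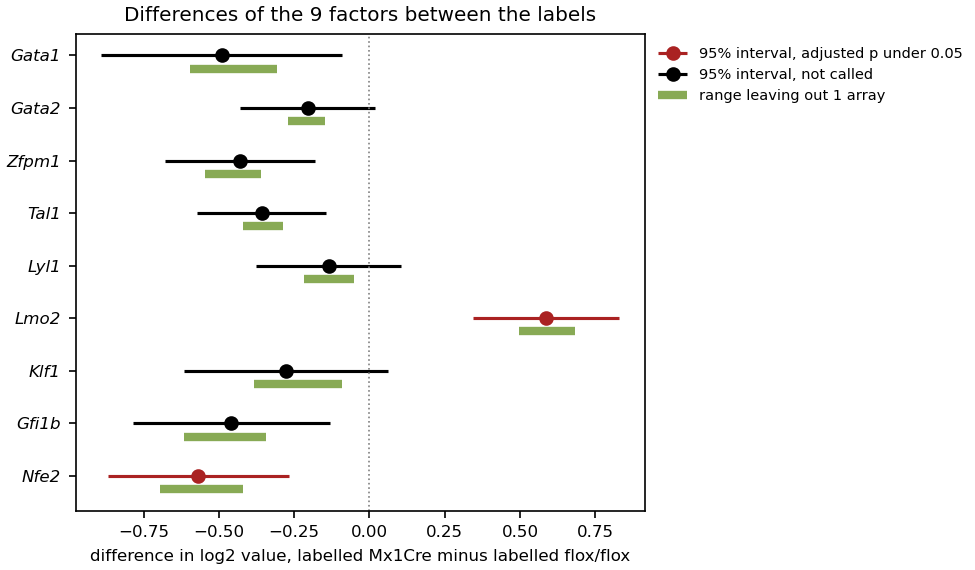
Difference in log2 value (horizontal axis, labelled Mx1Cre minus labelled flox/flox) of the 9 factors, as points with 95% intervals from limma, red where the adjusted p was under 0.05, and with green bars for the range of the difference over the 6 fits that left out 1 array. The red points are Lmo2 at 0.59 and Nfe2 at -0.57, and no green bar crosses 0.

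Mx1Cre replicate 1 gave the lowest value of all 6 arrays for 7 of the 9 factors, and flox/flox replicate 3 the highest for 5. Lmo2 was the exception at the other end, being highest in Mx1Cre replicate 1. Within the flox/flox label, replicate 2 was the lowest for 6 of the 9. The mean over the 9 factors was 8.24 in Mx1Cre replicate 1, against 8.49 and 8.48 in replicates 2 and 3, and 8.67, 8.54 and 8.77 in the arrays labelled flox/flox. Over all genes, Mx1Cre replicate 1 also had the lowest of limma's array weights (0.54), which fall as an array departs from its group. The direction of each of the 9 differences was kept in all 6 fits that left out 1 array. Among the factors not called, the difference of Gata1 then ran from -0.60 to -0.31, that of Tal1 from -0.42 to -0.29 and that of Zfpm1 from -0.55 to -0.36. For Gata2 it ran from -0.27 to -0.15 and for Lyl1 from -0.22 to -0.05. The widest of these ranges was that of Klf1, from -0.38 to -0.09.

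The window before the start site was examined for the letters that factors of this set bind, because several members are known to act on each other's genes. RefSeq promoter sequences (GRCm38.p6) matched 7 of the 9 genes in 9 windows, with none for Lmo2 and Nfe2, the called factors, and the 250 bases before each start were searched on both strands. The GATA letters, either GATAA or GATAG with A or T before them, occurred in 3 of the 9 windows, against 26.5% of all 32851 windows. These were 1 window each of Gfi1b, Klf1 and Tal1, whose differences were -0.46, -0.28 and -0.36. The E-box CANNTG, the letters bound by helix-loop-helix pairs, was found in 4 of the 9 windows and in 66.2% of all. A Krüppel-like factor motif, CCNCNCCC, was found in 7 of the 9 and in 45.9% of all. The C/EBP letters TTNCNNAA were found in 3 of the 9 and in 36.8% of all, and the ETS letters GGAAG in 5 of the 9 and in 64.1% of all. None of the 3 GATA matches overlapped a match to another motif searched. The 3 windows with GATA letters are shown 5′ to 3′ on the gene's strand, with the match in capitals. They lie at chr2:28621983-28622232 (minus strand, Gfi1b), chr8:84901732-84901981 (plus strand, Klf1) and chr4:115056176-115056425 (plus strand, Tal1).
Gfi1b: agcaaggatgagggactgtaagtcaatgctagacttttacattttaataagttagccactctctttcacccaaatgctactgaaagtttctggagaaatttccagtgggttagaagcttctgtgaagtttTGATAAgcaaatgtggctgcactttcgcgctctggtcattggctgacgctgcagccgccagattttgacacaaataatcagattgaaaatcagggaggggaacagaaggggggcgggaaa
Klf1: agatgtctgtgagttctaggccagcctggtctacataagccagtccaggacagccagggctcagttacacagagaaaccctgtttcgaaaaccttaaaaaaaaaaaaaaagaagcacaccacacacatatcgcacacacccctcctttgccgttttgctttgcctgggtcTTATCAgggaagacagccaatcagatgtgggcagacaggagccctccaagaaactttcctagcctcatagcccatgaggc
Tal1: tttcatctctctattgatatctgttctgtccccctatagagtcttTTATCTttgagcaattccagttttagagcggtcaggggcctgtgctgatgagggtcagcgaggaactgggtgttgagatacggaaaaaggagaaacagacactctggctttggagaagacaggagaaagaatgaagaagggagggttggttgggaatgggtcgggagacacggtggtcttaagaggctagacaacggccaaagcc
The matches begin 120, 80 and 205 bases before the start site of Gfi1b, Klf1 and Tal1. In Klf1 and Tal1 the letters are read on the opposite strand, so the capitals show their reverse complement. A match is a run of letters and not a measured binding site.

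Partners and corepressors of the 9 factors, in a list that also holds inhibitors such as Id2, were mostly not called. Of 25 complex partners and corepressors, limma called 2 lower and 0 higher in the arrays labelled Mx1Cre (2.28% and 2.63% of all genes). At an unadjusted p under 0.05, 7 were lower and 1 higher (8.12% and 8.32% of all genes). The groups did not overlap for 9 lower genes and 1 higher (11.0% and 10.5% of all genes). The list's median was -0.14, beside -0.01 for all genes. Id2, an inhibitor that binds E proteins and keeps them from pairing with factors such as TAL1, read 7.90, 8.11 and 8.01 for flox/flox and 6.33, 7.29 and 7.34 for Mx1Cre. Id2 fell 2.03-fold (adjusted p = 0.0298), and its call was lost without flox/flox replicate 1, 2 or 3 (adjusted p 0.0740, 0.0931 and 0.0969). Ssbp3, whose product stabilises LDB1, fell 1.29-fold (adjusted p = 0.0493), and passed in 0 of those 6 fits.

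Cbfa2t3, which encodes the corepressor ETO2 of the same complex, read 9.02, 8.41 and 8.81 for flox/flox and 7.90, 8.38 and 8.26 for Mx1Cre. Its groups were separate, by a narrow margin at replicate 2 of each, and its difference of -0.57 ± 0.16 (SE) did not pass (limma adjusted p = 0.0898). Ldb1, the scaffold of the complex, differed by -0.26 ± 0.13 (SE, adjusted p = 0.399), and Runx1, a partner in megakaryocytes, by 0.25 ± 0.15 (adjusted p = 0.495).

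Of 18 paralogues of the factors 2 were called lower and 0 higher (2.28% and 2.63% of all genes), with a median of -0.08. At an unadjusted p under 0.05, limma gave 2 lower and 1 higher, near the shares of all genes (8.12% and 8.32%). Gata3, the GATA factor of T cells and innate lymphoid cells, fell 1.41-fold (6.99 ± 0.077 to 6.49 ± 0.045, SD, n = 3 each, limma adjusted p = 0.00991). It missed the threshold without flox/flox replicate 3 (adjusted p = 0.0503). Klf6, a widely expressed Krüppel-like factor, fell 1.35-fold (adjusted p = 0.0286), and passed in 1 of the 6 fits that left out 1 array, the one without Mx1Cre replicate 3 (0.0421). Gfi1, the myeloid and stem cell paralogue of Gfi1b, differed by 0.18 ± 0.095 (SE, adjusted p = 0.410).

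Of 22 measured genes among 23 other erythroid and megakaryocyte regulators, 1 rose and 1 fell, with a median of -0.03. All genes were called higher in 2.63% and lower in 2.28%. At an unadjusted p under 0.05, 2 of the list were higher and 2 lower, near the shares of all genes (8.32% and 8.12%). Mef2c, a factor of megakaryocytes and lymphoid progenitors, read 8.85, 9.03 and 9.16 for flox/flox and 9.94, 9.78 and 9.81 for Mx1Cre. It rose 1.78-fold (limma adjusted p = 0.00143) and passed in 15 of 15 alternatives. Zbtb16, a zinc-finger factor that is also a marker of innate lymphoid cells, fell 1.86-fold (adjusted p = 0.00650). Spi1 (PU.1), known to antagonise GATA1, differed by 0.50 ± 0.12 (SE, adjusted p = 0.0502). Fli1, the megakaryocyte ETS factor, differed by 0.12 ± 0.086 (SE, adjusted p = 0.575), and Myb by -0.19 ± 0.095 (adjusted p = 0.373).

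**Figure D3:**
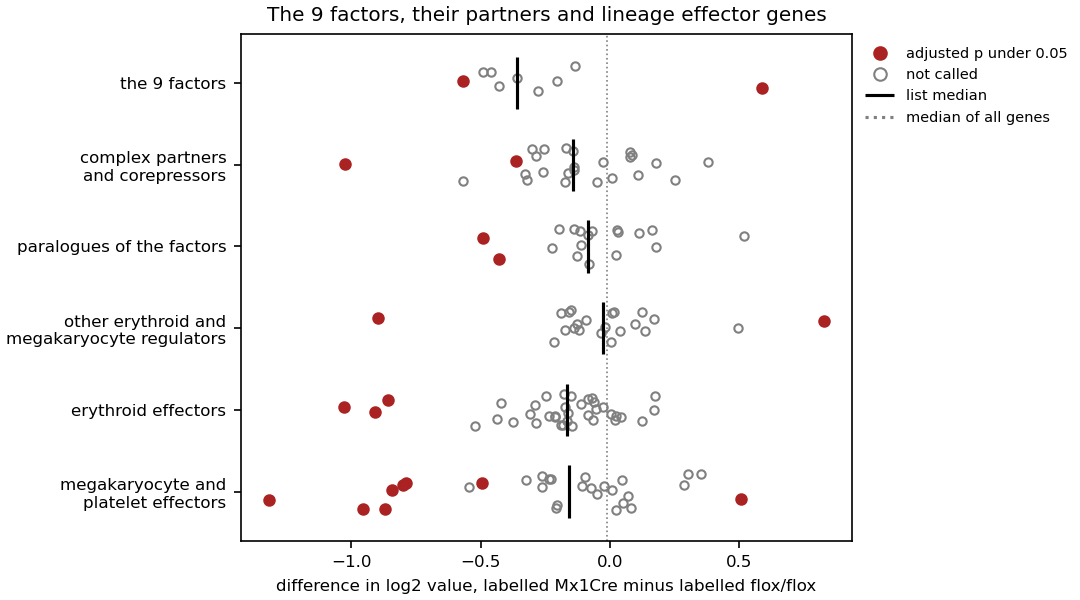
Difference in log2 value (horizontal axis, labelled Mx1Cre minus labelled flox/flox) of each measured gene of 6 lists, red where the limma adjusted p was under 0.05, with the list median as a black line and the median of all genes as a dotted line. The median of the 9 factors lies at -0.36, and those of the erythroid and the megakaryocyte and platelet effectors at -0.17 and -0.16.

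Within arrays, 6 pairs of genes were compared, as the log2 value of the first minus that of the second, to ask whether they changed unequally. Sizes within an array depend on the probes and do not rank the genes. The exact two-sided permutation test over 3 against 3 arrays cannot give less than p = 0.1, so no pair could pass. Gata1 minus Spi1 was -0.50, -0.16 and 0.38 for flox/flox and -1.32, -1.02 and -0.91 for Mx1Cre. All 3 arrays labelled Mx1Cre were lower, with a change of -0.99 (exact permutation p = 0.1, adjusted over the 6 pairs 0.2).

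Klf1 minus Fli1 was lower in all 3 arrays labelled Mx1Cre, with a change of -0.40 (exact permutation p = 0.1, adjusted 0.2). Gata2 minus Cebpa was too, with a change of -2.38 (exact permutation p = 0.1, adjusted 0.2), to which Cebpa gave a difference of 2.17. The groups overlapped for Gfi1b minus Gfi1 (-0.64, exact permutation p = 0.2), for Tal1 minus Lyl1 (-0.22, exact permutation p = 0.3) and for Gata2 minus Gata1 (0.28, exact permutation p = 0.5). The change between Gata2 and Gata1 was thus within the spread between arrays.

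Erythroid effector genes, which the GATA1, TAL1 and KLF1 proteins are known to act on, were mostly not called, and those called were lower. Of 37 measured genes among 49 fixed, limma called 3 lower and 0 higher in the arrays labelled Mx1Cre (2.28% and 2.63% of all genes). At an unadjusted p under 0.05, 8 were lower and 0 higher (8.12% and 8.32% of all genes). All 3 Mx1Cre values lay below the flox/flox values for 11 genes and above them for 0 (11.0% and 10.5% of all genes). The differences of 30 of the 37 were below 0, against 53.4% of all genes. Car2, a red cell carbonic anhydrase, read 10.70, 10.86 and 11.07 for flox/flox and 9.74, 9.87 and 9.94 for Mx1Cre, and fell 2.04-fold (adjusted p = 0.000646). Hemgn, the nuclear protein hemogen, known as a GATA1 target, read 9.58, 9.55 and 9.72 for flox/flox and 8.60, 8.64 and 8.88 for Mx1Cre. Hemgn fell 1.88-fold (adjusted p = 0.000850), and Car2 and Hemgn each passed in 15 of 15 alternatives.

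Rhag, the Rh-associated membrane glycoprotein, was dim (6.01 ± 0.32 and 5.15 ± 0.34, SD, n = 3 each). It fell 1.81-fold (limma adjusted p = 0.0295), and passed in 2 of the 6 fits that left out 1 array, those without flox/flox replicate 3 (0.0351) and without Mx1Cre replicate 3 (0.0117). Epor, the erythropoietin receptor, differed by -0.17 ± 0.095 (SE), Car1, another carbonic anhydrase, by -0.21 ± 0.18, and Alas2, the erythroid enzyme that starts haem synthesis, by -0.42 ± 0.23. None of these 3 passed (adjusted p 0.429, 0.671 and 0.423).

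Megakaryocyte and platelet effector genes had the larger count of calls, but 22 of the 30 measured were not called. Of 30 measured genes among 37 fixed, limma called 7 lower and 1 higher in the arrays labelled Mx1Cre (2.28% and 2.63% of all genes). At an unadjusted p under 0.05, 11 were lower and 3 higher (8.12% and 8.32% of all genes). All 3 Mx1Cre values lay below the flox/flox values for 13 genes and above them for 3 (11.0% and 10.5% of all genes). The differences of 20 of the 30 were below 0, against 53.4% of all genes. Ppbp, a platelet chemokine, read 6.91, 6.46 and 6.65 for flox/flox and 5.45, 5.38 and 5.24 for Mx1Cre, and fell 2.50-fold (limma adjusted p = 0.000255). F2r, a thrombin receptor, read 8.77, 8.75 and 8.81 for flox/flox and 7.74, 7.99 and 8.07 for Mx1Cre, and fell 1.79-fold (adjusted p = 0.00124). Gp5, a subunit of the von Willebrand factor receptor on platelets, fell 1.94-fold (adjusted p = 0.0203) and the ATP receptor gene P2rx1 1.83-fold (adjusted p = 0.00340). Cd9, a tetraspanin, fell 1.73-fold and Plek, pleckstrin, 1.41-fold (adjusted p 0.00819 and 0.0190).

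Slc35d3, a transporter of platelet dense granules, rose 1.42-fold (limma adjusted p = 0.0468), and passed in 1 of the 6 fits that left out 1 array, the one without Mx1Cre replicate 2 (0.00949). Pf4, platelet factor 4, differed by -0.54 ± 0.16 (SE, adjusted p = 0.0921). Among others not called, Gp9 differed by -0.21, Itgb3 by -0.10, Vwf by -0.07, Tubb1 by 0.007 and Clec1b by 0.08. Ppbp and F2r passed in 15 of 15 alternatives, whereas Gp5 was lost without flox/flox replicate 2 or 3 (0.0635 and 0.0818). Plek was lost without flox/flox replicate 1 or 3 and without Mx1Cre replicate 2 or 3 (0.0599 to 0.0803). These lists share their arrays with the 9 factors, and their counts are set beside 2.28% of all genes called lower and 2.63% called higher.

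Markers of other cells that use these factors moved between the labels as well. Mast cells and basophils depend on GATA2. Of 20 measured markers among 21 fixed, limma called 4 higher and 6 lower in the arrays labelled Mx1Cre (2.63% and 2.28% of all genes). At an unadjusted p under 0.05, 4 were higher and 7 lower (8.32% and 8.12% of all genes). Mcpt8, a basophil protease, Hdc, which makes histamine, and Ms4a2, the β chain of the IgE receptor, rose 6.81-fold, 2.91-fold and 2.43-fold. Cpa3, the mast cell carboxypeptidase, and Fcer1a, the α chain of the IgE receptor, fell 1.75-fold and 3.37-fold. Gzmb, the protease granzyme B, had the widest difference of the list, 21.9-fold lower (11.46, 10.83 and 11.22 for flox/flox and 5.80, 7.35 and 6.99 for Mx1Cre). All 6 passed with a limma adjusted p of 0.00805 or less. The list's median difference was 0.01, and 10 of its 20 genes lay below 0. Its mean level, which Gzmb pulls down in the arrays labelled Mx1Cre, was 6.74 to 6.86 for flox/flox and 6.39 to 6.71 for Mx1Cre, lowest in Mx1Cre replicate 1, where Gzmb and 7 of the 9 factors were also lowest.

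Of the markers of T and innate lymphoid cells, a list that holds Gata3, Id2 and Zbtb16, 18 were measured. Limma called 8 lower and 0 higher (2.28% and 2.63% of all genes), and 11 and 0 at an unadjusted p under 0.05 (8.12% and 8.32%). Tox, a factor of lymphoid development, fell 7.32-fold and Rora, a factor of innate lymphoid cells, 2.56-fold, while Cd3e differed by -0.003 ± 0.085 (SE). The mean level ran from 7.03 to 7.13 for flox/flox and from 6.25 to 6.43 for Mx1Cre. Of 19 granulocyte and monocyte genes 13 rose and 0 fell (2.63% and 2.28% of all genes), with mean levels of 6.89 to 7.10 and 8.50 to 8.82. At an unadjusted limma p under 0.05 the counts were 17 and 0, beside 8.32% and 8.12% of all genes. Eosinophils need GATA1, and limma called 0 of 9 measured eosinophil markers in either direction (1 higher and 1 lower at an unadjusted p under 0.05, near the shares of all genes). Epx, eosinophil peroxidase, averaged 5.54 and 5.72, near the lower quartile of gene levels. Siglecf of the same list averaged 8.35 for flox/flox and 8.14 for Mx1Cre, above the upper quartile (8.07). Whether the makeup of the sorted cells has a part in the differences of the 9 factors was not tested.

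**Figure D4:**
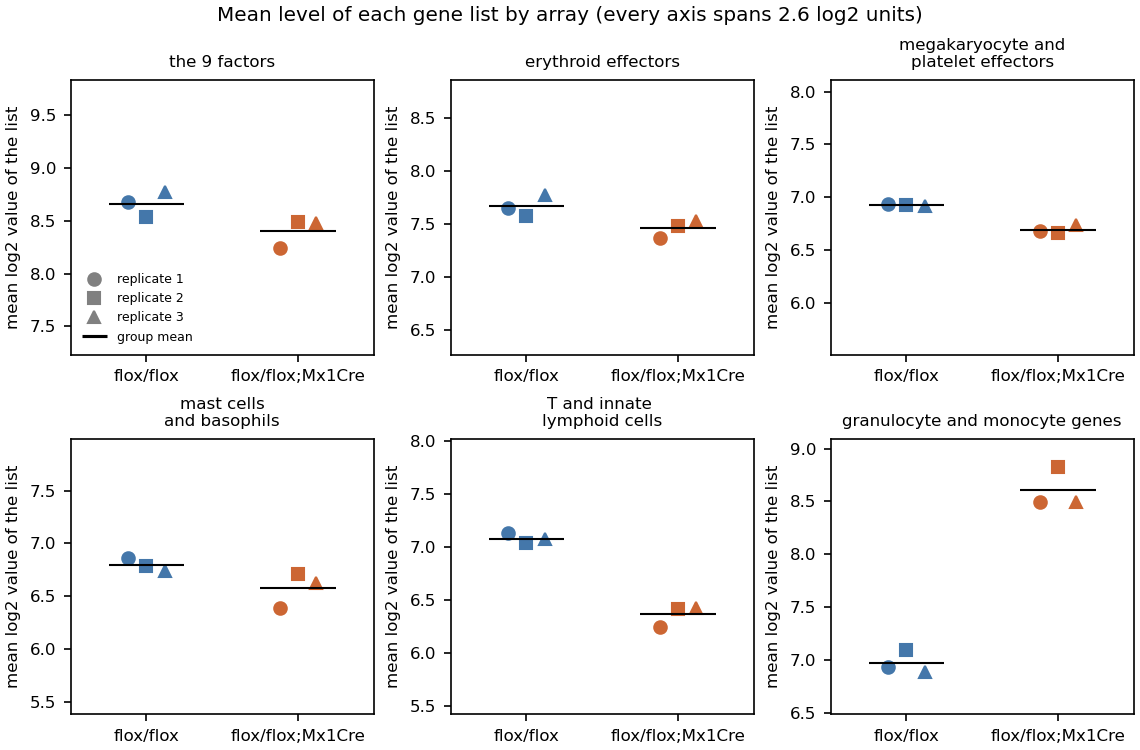
Mean log2 value over the measured genes of each list (vertical axes, each of the same span) in the 3 arrays of each label (horizontal axis), with the group mean as a line and the replicate number as the symbol. The 9 factors and the erythroid effectors are lowest in Mx1Cre replicate 1 (8.24 and 7.37). So are the mast cell and basophil list and the T and innate lymphoid list (6.39 and 6.25). Every list shown is separate between the labels, the granulocyte and monocyte list higher and the others lower in the arrays labelled Mx1Cre. The margin is narrow for the 9 factors (8.54 and 8.49 in the nearest arrays) and for the mast cell and basophil list (6.74 and 6.71).

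Genes with the most similar profile over the 6 arrays were sought for the 4 factors with the widest range, among 13946 other genes above the lower quartile of level. Likeness was the root mean square difference of values centred per gene, in log2 units. Closest to Lmo2 were Ap1s2 (0.022), Clcn3 (0.037) and Arhgap31 (0.050), and closest to Nfe2 were Suox (0.043), Slfn10-ps (0.045) and Kif3a (0.055). The nearest genes to Gfi1b were Pfn4, Pcmtd2 and Snap23 (0.056 to 0.077). The nearest to Gata1 were Zcwpw1, Ptms and Ell2 (0.099 to 0.11), so that the profile of Gata1 was matched less closely than those of the other 3. With 6 arrays that fall into 2 labels, such a list describes these arrays and nothing more.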

How the data were processed

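RNA of sorted PreGMs was measured on 6 Affymetrix mouse gene arrays, after 20 ng of total RNA had been amplified with a whole-transcriptome kit, per the labels' protocols. The deposited table holds 1 log2 value for each probe set and array, which the authors made with RMA and affy, per the submitters' processing notes. The sources used here give no version and no chip definition. RMA normalizes across arrays and pulls dim probe sets towards a floor, which understates their folds.

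Of 34760 probe sets, 21640 had 1 gene symbol in the platform annotation, and the set with the highest mean stood for a gene, giving 19937 genes. The labels were compared in R 4.3.3 with lmFit and eBayes of limma 3.58.1, with no replicate term, and p-values were adjusted over all genes. The test was checked on simulated data. Genes of the lists that no single-symbol probe set stands for were not analysed here. The 9 genes, the lists, pairs and the rule for the genes named were chosen with earlier results of these data known. That rule takes all 9 factors, Cebpa, up to 4 called genes in each direction per list, fixed regulators, gate genes and markers, the 3 brightest genes of the marker and effector lists, and the 3 genes nearest to a factor in profile. The text gives a selection of these, and adds a few megakaryocyte genes that were not called. Alternatives were each array left out, a replicate term, other normalizations, filters, probe set rules, variance models and thresholds. The number of arrays limits the precision.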

Additional observations from a re-analysis of the deposited data

How the results depend on the processing

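The 9 differences kept their direction in all 15 alternatives, but not all of these could turn it. The replicate term, the dim-gene filter and the mean of probe sets left the differences of the 9 factors as they were. So did the intensity trend, the test of all probe sets and the looser threshold. The differences could change only without 1 array, with median centring, cyclic loess or array weights, and their direction was kept there. The number of factors called, 2 in the report, was 1 to 3 when 1 array was left out. It was 3 without flox/flox replicate 2 (Lmo2, Zfpm1 and Gfi1b) and 1 with median centring. When dim genes were dropped at the lower quartile it was 4 (Lmo2, Nfe2, Zfpm1 and Tal1). The looser threshold, an adjusted p under 0.1, also gave 4. It was 0 with all probe sets tested together, which adds 11799 probe sets without a symbol here. In that fit the SE of Lmo2 went from 0.109 to 0.116 and its unadjusted limma p from 0.000302 to 0.00167. For Nfe2 the SE went from 0.135 to 0.152 and the unadjusted limma p from 0.00177 to 0.00777. The parts of the larger SE and of the wider adjustment in the lost calls were not tested. Over all genes the 979 calls became 538 to 785 without 1 array and 244 with all probe sets. Fewer arrays also lower the power. With the replicate number as a block, Zfpm1 passed beside Lmo2 and Nfe2 (adjusted p = 0.0345). The numbers are not known to pair mice. Deviations of same-numbered arrays correlated at 0.19, 0.051 and 0.17, and Mx1Cre replicate 2 correlated best with flox/flox replicate 3 (0.12).

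For the lists, partners called lower (2) were 0 to 2 without 1 array, 1 with the replicate block or median centring and 4 at the looser threshold, and partners called higher (0) were 1 with array weights. Paralogues called lower were 0 to 2 without 1 array. Paralogues called higher (0) were 0 to 1 without 1 array and 1 with the dim-gene filter, array weights, the intensity trend or the looser threshold. Other regulators called higher (1) were 1 to 2 without 1 array, and 2 with cyclic loess, the filter, the mean of probe sets, the intensity trend, array weights or the looser threshold. Megakaryocyte genes called higher (1) were 0 to 1 without 1 array, 0 with the replicate block and 2 with cyclic loess, array weights or the looser threshold. The cause of these moves was not tested. The counts of erythroid genes (2 to 4) and megakaryocyte genes (5 to 8) called lower stayed within 1.5 times the reported ones.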
